A study of Capra hircus with 6 samples.

Results

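The genes described here are 34 subunits of the fast, ion-channel receptors for glutamate, GABA and glycine, measured by RNA sequencing in the medio-basal hypothalamus of adult Alpine goats (Capra hircus). They were chosen by gene symbol from the 28907 rows of a table of read counts, and all 34 had a row. By receptor family, the set holds 17 subunits counted as excitatory (AMPA, NMDA, kainate and delta receptors) and 17 counted as inhibitory (GABA-A and glycine receptors). It does not hold every subunit of these receptors, and GRID1, a delta receptor, is counted as excitatory by family alone. The study took 18 goats, namely 5 January goats in the follicular phase of their ovarian cycle, 5 January goats in the luteal phase and 8 mid-May goats in anestrus, the season without cycles. RNA of the goats of each condition was mixed at random, in equal molar amounts, into 2 pools, and each pool gave 1 library. The sources used here do not give how many goats a pool held, or whether the pools of a condition shared goats. The follicular and anestrus pools are compared here, and the luteal pools were not analysed here. Season and ovarian state differ together in this comparison and cannot be told apart.

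Ionotropic glutamate receptors are cation channels assembled from several subunits, and they carry most fast excitation in the brain. GABA-A and glycine receptors are chloride channels of another protein family, and they carry most fast inhibition, although the direction of the current depends on the chloride content of the cell. In the medio-basal hypothalamus both kinds of input reach the neurons that control GnRH secretion, feeding and the pituitary, and the subunits in a receptor set its kinetics, its place in or outside the synapse and its drug sensitivity. In RNA from whole tissue, fewer cells that express a gene and less RNA of that gene per cell cannot be told apart.

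Library totals ran from 14553821 to 25292678 counts. Levels are given as CPM, which relates a count to the library total after TMM scaling, so that a count of 3 stands for 0.118 to 0.210 CPM. No transcript lengths were used, so levels are compared between pools and not between genes. Of the 34 subunits, 32 passed the filter on low counts (16 excitatory and 16 inhibitory) and were tested with the 16756 genes that passed. GABRA6, the alpha subunit of cerebellar granule cells, had 0 and 1 counts in the follicular pools against 2 and 0 in the anestrus pools, and GRIN3B had 5 and 0 against 0 and 1. Values of a group are always given in the order pool 1, pool 2. Neither was tested. Markers of the hypothalamus were present, among them the neuropeptide SST, which stood at 153.8 and 87.1 CPM in follicular RNA and at 105 and 52.1 CPM in anestrus RNA, and all 17 matched members of that marker list passed the filter.

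Most subunits read higher in the follicular phase than in anestrus, and no single subunit passed the test. The log2 fold change (follicular minus anestrus) was positive for 28 of the 32 tested subunits, beside 49.9% of all genes tested, and its median was 0.43 over the subunits and -0.00 over all genes. For 21 subunits both follicular pools lay above both anestrus pools, beside 17.6% of all genes, and for 0 subunits both lay below, beside 20.7%. GLRA1 and GRIN2B are among the 28 and the 21, and they passed the filter on low counts only through their follicular pools. Their higher follicular reading is thus partly selected by the filter, here and in the class counts below. At an adjusted p under 0.05 in edgeR's quasi-likelihood test, 0 of 32 were called, beside 0.203% of all genes. At an unadjusted p under 0.05, 9 subunits were higher in the follicular phase, beside 4.26% of all genes, and 0 were lower, beside 4.29%. The 9 were the excitatory subunits GRIA1, GRIA2, GRIN1 and GRIN2C and the inhibitory subunits GABRA2, GABRA4, GABRA5, GABRB2 and GLRA2.

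The count of calls depended on the test, the count filter and single pools. limma-voom called 0 subunits, DESeq2 called 1 (GABRA2), and edgeR without a count filter called 3 (GABRA2, GABRB2 and GRIN1). Over all genes these fits called 30 of 16756, 147 of 15549 and 300 of 21771, against 34 of 16756 in the reported fit. With a pool left out, edgeR called 0 subunits without either follicular pool, 3 without anestrus pool 1 (GABRA2, GRIN1 and GRIN2C) and 5 without anestrus pool 2 (GABRA2, GABRB2, GABRG1, GABRQ and GRIA2). Over all genes the same 4 fits called 4 and 41 genes without follicular pool 1 and 2, and 818 and 555 without anestrus pool 1 and 2, against 34 with all pools. The 9 subunits at an unadjusted p under 0.05 became 4 when either follicular pool was left out, 8 when anestrus pool 1 was left out and 14 when anestrus pool 2 was. The share of all genes higher at that p moved too, from 4.26% to 1.46% and 2.88% without follicular pool 1 and 2, and to 10.6% and 8.12% without anestrus pool 1 and 2. GABRA2 and GABRB2 stayed under that p in each of the 14 alternative fits, and GRIN1 in 13 of them. With 1 pool left out, the log2 fold change of 20 of the 32 subunits moved by over 1.5 times or changed sign, and that of 9 changed sign.

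**Figure D1:**
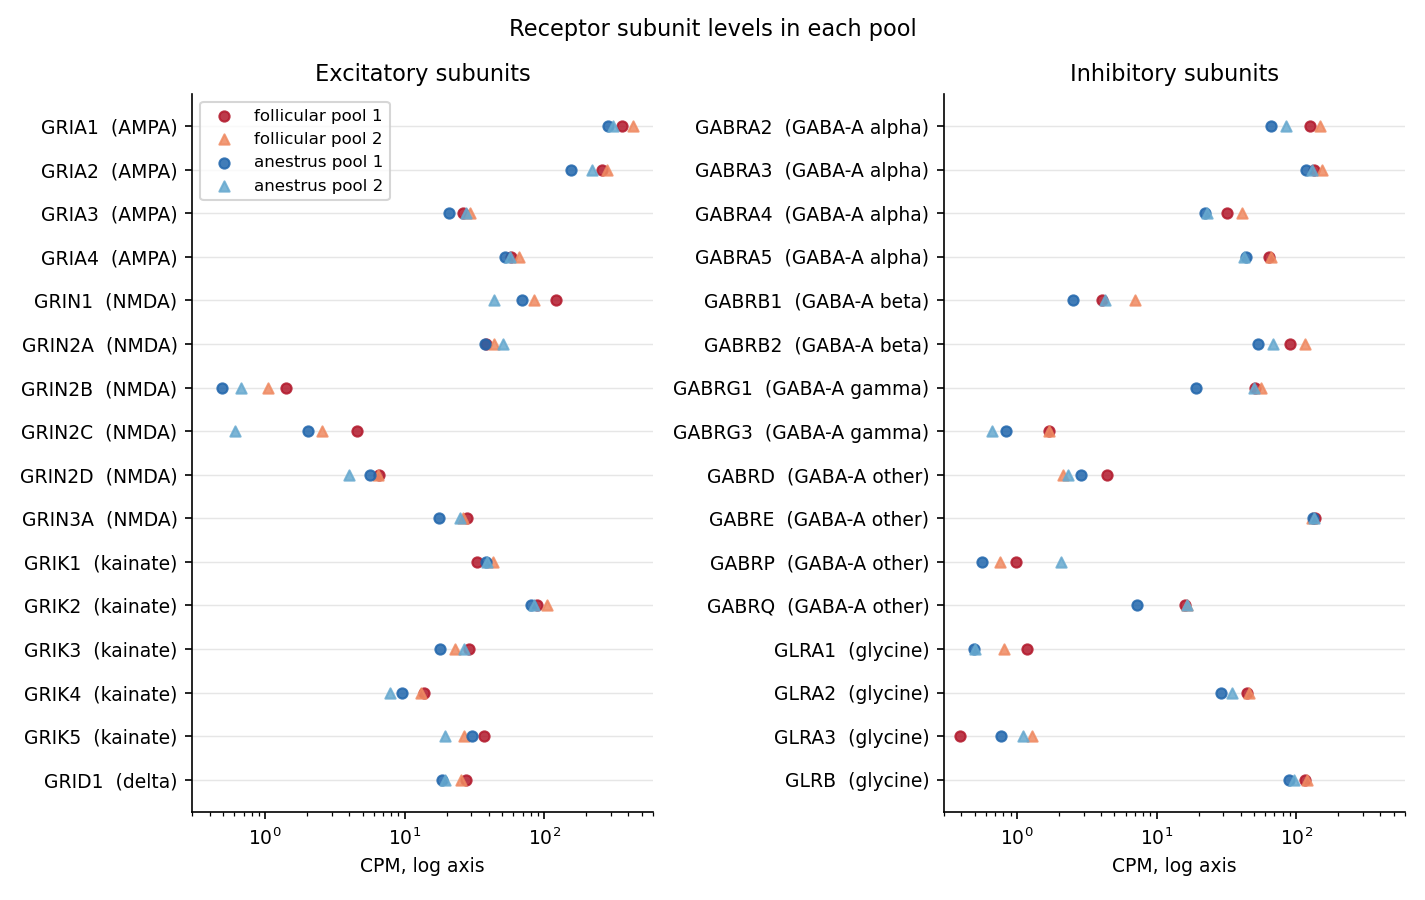
CPM (log axis) of the 32 tested subunits in each of the 4 pools, excitatory on the left and inhibitory on the right. GABRA2 lies at 125 and 148 CPM in the follicular pools, against 66.2 and 85.1 CPM in the anestrus pools, while the 4 GABRE points fall together between 131 and 137 CPM.

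AMPA receptors carry the fast part of the glutamate response. GRIA1, a subunit whose insertion at synapses accompanies potentiation, was at 359.6 and 432 CPM in the follicular pools, against 287 and 310.1 CPM in the anestrus pools. Its log2 fold change was 0.41 ± 0.16 (SE), with an adjusted p of 0.511 (edgeR), and 0.27 when follicular pool 2 was left out. GRIA2, the subunit that makes AMPA receptors impermeable to calcium once its RNA is edited, was at 259.8 and 283 CPM against 156 and 221 CPM. Both GRIA1 and GRIA2 were thus higher in each follicular pool than in either anestrus pool, and GRIA2 was lowest in anestrus pool 1. The log2 fold change of GRIA2 was 0.52 ± 0.19 (adjusted p = 0.439, edgeR), with 0.29 when anestrus pool 1 was left out and 0.84 when anestrus pool 2 was. GRIA3 (0.19 ± 0.23) and GRIA4 (0.18 ± 0.18) had smaller log2 fold changes. GRIA4 ran from 57.9 to 65.7 CPM in the follicular pools and from 52.2 to 56.8 CPM in the anestrus pools, and the groups overlapped for GRIA3. Without follicular pool 2 the log2 fold change of GRIA4 was 0.09, and without anestrus pool 1 that of GRIA3 was -0.00.

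NMDA receptors need GRIN1, the glycine-binding subunit common to all of them, together with GRIN2 subunits that bind glutamate. GRIN1 was at 121 and 84.7 CPM in the follicular pools, against 69.6 and 43.5 CPM in the anestrus pools. The groups did not overlap, and pool 1 was the higher one in each group. Its log2 fold change was 0.87 ± 0.26, a 1.82-fold difference, with an adjusted p of 0.344 (edgeR). GRIN2C, the GRIN2 subunit of cerebellum and of some glia, had a log2 fold change of 1.46 ± 0.59 (adjusted p = 0.517, edgeR), the largest of the 32, on few counts. It was at 4.53 and 2.56 CPM against 2.03 and 0.611 CPM, from 115, 44, 29 and 11 counts. Leaving out anestrus pool 1 gave a log2 fold change of 2.54 for GRIN2C, and leaving out anestrus pool 2 gave 0.85.

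The other NMDA subunits differed in the sign and size of their log2 fold changes. GRIN2A, the GRIN2 subunit that prevails in adult forebrain, was at 37.9 and 43.5 CPM in the follicular pools, against 37.7 and 50.7 CPM in the anestrus pools, a log2 fold change of -0.12 ± 0.21 with overlapping groups. GRIN2B, the subunit that prevails before birth, had only 36 and 18 counts against 7 and 12, and a log2 fold change of 1.08 ± 0.58. Few counts can also come from a gene model that covers only part of a gene, and the annotation behind the counts is not given in the sources used here, so this was not tested for GRIN2B. The log2 fold change of GRIN2D, common in interneurons and the diencephalon, was 0.43 ± 0.34, and ran from 0.23 to 0.70 with a pool left out. GRIN3A, which lowers the calcium permeability of the receptor, was at 28.0 and 26.0 CPM against 17.7 and 24.8 CPM, with a log2 fold change of 0.35 ± 0.24. Dropping anestrus pool 1 gave 0.12 for GRIN3A, and dropping anestrus pool 2 gave 0.65.

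Kainate receptors modulate transmitter release as well as carrying synaptic current. GRIK2, a subunit that can form channels alone, was at 88.6 and 105 CPM in the follicular pools, against 80.1 and 84.2 CPM in the anestrus pools, a log2 fold change of 0.23 ± 0.17 (adjusted p = 0.782, edgeR) that was 0.11 without follicular pool 2. GRIK4, a high-affinity subunit that needs a partner such as GRIK2, was at 13.8 and 13.0 CPM against 9.53 and 7.88 CPM. Its log2 fold change was 0.63 ± 0.29 (adjusted p = 0.589, edgeR), the largest of the family. GRIK2 and GRIK4 were the 2 of 5 kainate subunits whose groups did not overlap, both higher in the follicular phase, beside 17.6% of all genes. GRIK1 had a log2 fold change of -0.03 ± 0.21, GRIK3 of 0.23 ± 0.26 and GRIK5, the other high-affinity subunit, of 0.35 ± 0.27. For GRIK5, dropping anestrus pool 1 gave 0.70, and dropping anestrus pool 2 gave 0.10. GRID1, a delta receptor that links synapses through cerebellins, was at 27.3 and 25.3 CPM against 18.4 and 19.5 CPM, without overlap, and had a log2 fold change of 0.47 ± 0.23 (adjusted p = 0.618, edgeR).

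The alpha and beta subunits of the GABA-A receptor form its GABA-binding sites. For 5 of the 6 tested here both follicular pools lay above both anestrus pools, beside 17.6% of all genes. GABRA2, an alpha subunit found at many forebrain synapses, was at 125 and 148 CPM in the follicular pools, against 66.2 and 85.1 CPM in the anestrus pools. It was 1.80-fold higher in the follicular phase, a log2 fold change of 0.85 ± 0.18, and had the smallest adjusted p of the 32 (adjusted p = 0.167, edgeR). GABRB2, a beta subunit, was at 90.8 and 115 CPM against 52.9 and 67.9 CPM, a log2 fold change of 0.77 ± 0.20 (adjusted p = 0.244, edgeR). For both genes the follicular pools lay above the anestrus pools, and anestrus pool 1 was the lowest of the 4.

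GABRA5, an alpha subunit of receptors that lie largely outside synapses, differed little between pools of a group, with 64.0 and 66.5 CPM in the follicular pools against 44.1 and 42.6 CPM. The log2 fold change was 0.59 ± 0.18 (adjusted p = 0.323, edgeR). GABRA4, which pairs with the delta subunit in several brain regions, was at 32.0 and 40.7 CPM against 22.3 and 22.9 CPM, with a log2 fold change of 0.68 ± 0.22 (adjusted p = 0.371, edgeR). The groups of GABRA5 and GABRA4 did not overlap. GABRA3, the alpha subunit with the most counts of those in the set, was at 133 and 154 CPM against 117 and 130.0 CPM, a log2 fold change of 0.22 ± 0.17 (adjusted p = 0.795, edgeR) that was 0.11 without follicular pool 2. GABRB1 was at 4.09 and 7.03 CPM against 2.52 and 4.28 CPM, and its groups overlapped.

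Gamma subunits tie the receptor to synapses and form the benzodiazepine site with an alpha subunit. GABRG1 was at 51.2 and 55.7 CPM in the follicular pools, but anestrus pool 1 had 19.1 CPM and anestrus pool 2 had 49.8 CPM. Anestrus pool 2 was thus close to the follicular pools, and anestrus pool 1 alone was low. Its log2 fold change was 0.63 ± 0.40 (adjusted p = 0.761, edgeR), with 0.10 when anestrus pool 1 was left out and 1.53 when anestrus pool 2 was. GABRG3 had 43 and 29 counts against 12 and 12, and a log2 fold change of 1.17 ± 0.53 (adjusted p = 0.59, edgeR). Whether the gene model of GABRG3 covers the whole gene was not tested either.

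The delta, epsilon, theta and pi subunits replace a gamma subunit or join less common receptors, and none of these 4 separated the groups. GABRE, the epsilon subunit, which is known from the hypothalamus and brainstem, was at 137 and 131 CPM in the follicular pools, against 132 and 135 CPM in the anestrus pools. Its log2 fold change of 0.01 ± 0.16 (adjusted p = 0.993, edgeR) was the smallest in size of the 32. GABRQ, the theta subunit, was at 15.9 and 16.4 CPM against 7.22 and 16.5 CPM, so that anestrus pool 1 stood alone as it did for GABRG1. GABRD, the delta subunit of receptors that carry tonic current, was at 4.45 and 2.15 CPM against 2.87 and 2.33 CPM. GABRP, the pi subunit, known mainly from reproductive tissues, had 25 and 13 counts against 8 and 37, and its log2 fold change was -0.60 ± 0.65.

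Glycine receptors consist of alpha subunits that bind glycine and of GLRB, which anchors the receptor to the scaffold protein gephyrin. GLRA2, the alpha subunit that prevails in the immature brain, was at 44.3 and 45.9 CPM in the follicular pools, against 29.0 and 35.0 CPM in the anestrus pools. Its log2 fold change was 0.49 ± 0.20 (adjusted p = 0.515, edgeR). GLRB was at 116 and 119.8 CPM against 89.1 and 96.7 CPM, a log2 fold change of 0.34 ± 0.16 (adjusted p = 0.606, edgeR). Both GLRA2 and GLRB were higher in each follicular pool than in either anestrus pool. GLRA1, the alpha subunit of adult spinal cord and brainstem, had 30 and 14 counts against 7 and 9, and GLRA3 had 10 and 22 against 11 and 20. At such counts only a large difference would be detectable.

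**Figure D2:**
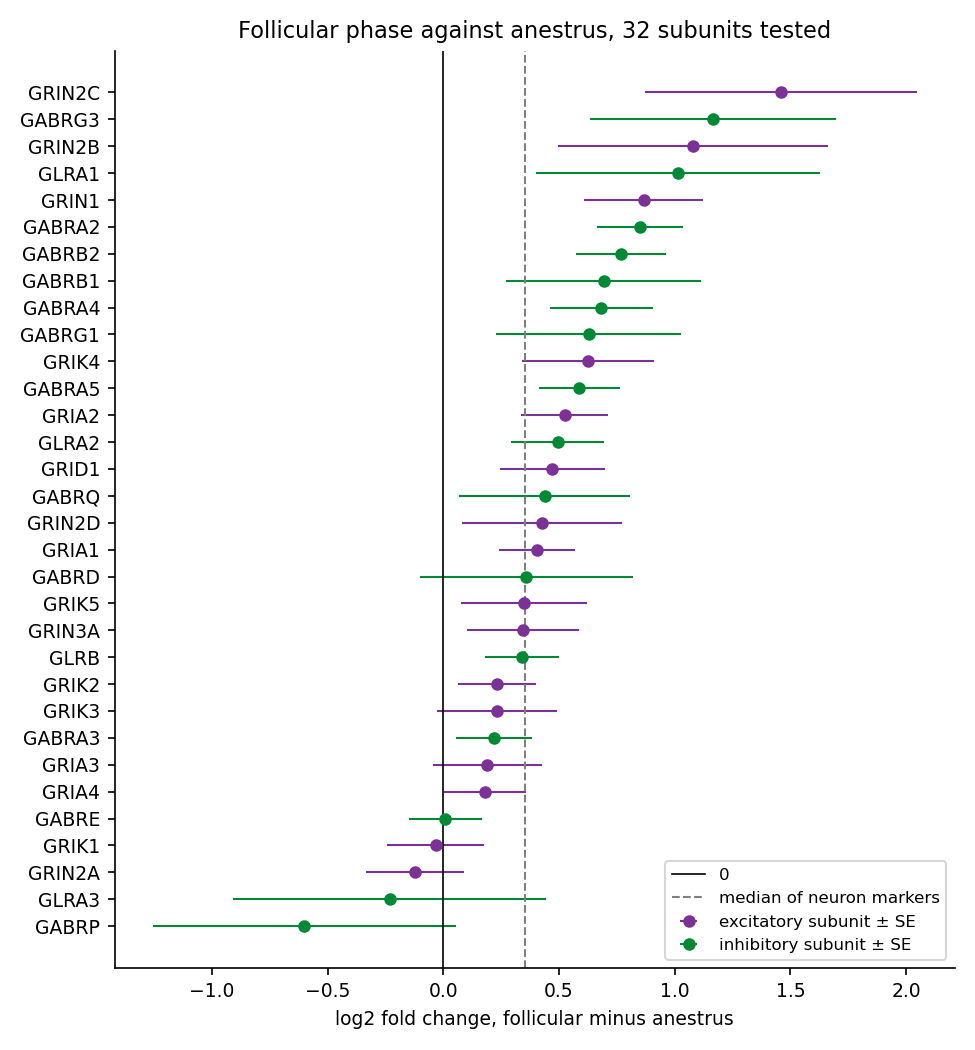
Log2 fold change (follicular minus anestrus, ± SE, horizontal axis) of the 32 tested subunits, coloured by class. The 28 positive values lie on the right of 0, GABRP, GLRA3, GRIN2A and GRIK1 lie on the left, and the dashed line marks the neuron marker median of 0.35.

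By family, the median log2 fold change was 0.30 for 4 AMPA, 0.65 for 6 NMDA and 0.23 for 5 kainate subunits. It was 0.64 for 4 GABA-A alpha, 0.73 for 2 beta, 0.90 for 2 gamma and 0.18 for the 4 other GABA-A subunits, and 0.42 for 4 glycine receptor subunits. Families of few genes rested on single pools. With 1 pool left out, the AMPA median ran from 0.19 to 0.48, the beta median from 0.42 to 1.09 and the gamma median from 0.72 to 1.28. The median of the other GABA-A subunits was -0.13 without follicular pool 1, -0.02 without anestrus pool 1 (1 of 4 positive in each) and 0.47 without anestrus pool 2. Over the 32 subunits it ran from 0.36 to 0.59, with 24 positive without anestrus pool 1 and 32 without anestrus pool 2. Libraries were also scaled by the summed counts of neuron markers in place of TMM. The median over all genes then moved to -0.25 and that over the subunits to 0.17. A change of scaling moves all genes by nearly the same amount, so the distance between these medians was set in advance and tests nothing. Under that scaling 22 of 32 subunits were positive in place of 28, 0 were called, and the medians of the kainate and other GABA-A families turned negative (-0.03 and -0.05). The subunits at an unadjusted p under 0.05 were then GABRA2, GABRB2, GRIN1 and GRIN2C, all higher in the follicular phase, beside 0.991% of all genes higher at that p under this scaling.

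Excitatory and inhibitory subunits were then set against each other within each pool. Their median log2 fold changes were 0.38 and 0.54, with 14 of 16 positive in each class. At an unadjusted p under 0.05, 4 of 16 excitatory and 5 of 16 inhibitory subunits were higher in the follicular phase, beside 4.26% of all genes. Both follicular pools lay above both anestrus pools for 11 and 10 subunits of the classes, beside 17.6% of all genes. Summed counts were 28742 and 20815 for the excitatory class and 20892 and 15619 for the inhibitory class in the follicular pools. In the anestrus pools they were 12045 and 16869, and 8368 and 12475. The mean log2 CPM of the excitatory subunits minus that of the inhibitory subunits, which depends on gene length and is compared only between pools, was 0.81 and 0.64 in the follicular pools against 0.93 and 0.57 in the anestrus pools. The group means of this difference, 0.72 ± 0.12 and 0.75 ± 0.26 (SD, n = 2), were -0.03 apart, within the spread of the pools (exact permutation test, two-sided, p = 1). With 2 pools against 2 that test cannot give a p below 0.333.

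Ratios of counts between subunits of a receptor type, in which library scaling and gene length cancel between pools, were computed for 7 pairs. The log2 ratio of GABRA2 to GABRA3 was -0.09 and -0.06 in the follicular pools, against -0.82 and -0.61 in the anestrus pools. The groups differed by 0.64, which exceeds the pooled SD of 0.107 (exact permutation test, two-sided, p = 0.333, the smallest possible, and 0.667 adjusted over the 7). GRIN2A to GRIN2B also did not overlap, at 4.74 and 5.38 against 6.26 and 6.25, a difference of -1.20 (pooled SD 0.318). GRIN2B gave as few as 7 counts, however, and the limit on its gene model holds here too. GLRA2 to GLRA1 was 5.23 and 5.82 against 5.89 and 6.13, a difference of -0.48 (pooled SD 0.318), with GLRA1 as low as 7 counts. These 2 differences exceeded their pooled SD as well, with the same unadjusted p of 0.333 (exact permutation test). With 2 pools a group, the difference always exceeds the pooled SD where the groups do not overlap, so it adds nothing. Such separation is common, since single genes lay higher in both follicular pools for 17.6% of all genes and lower for 20.7%. For the other 4 pairs the groups overlapped. GRIA2 against the sum of GRIA1, GRIA3 and GRIA4 was -0.77 and -0.90 against -1.21 and -0.84.

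**Figure D3:**
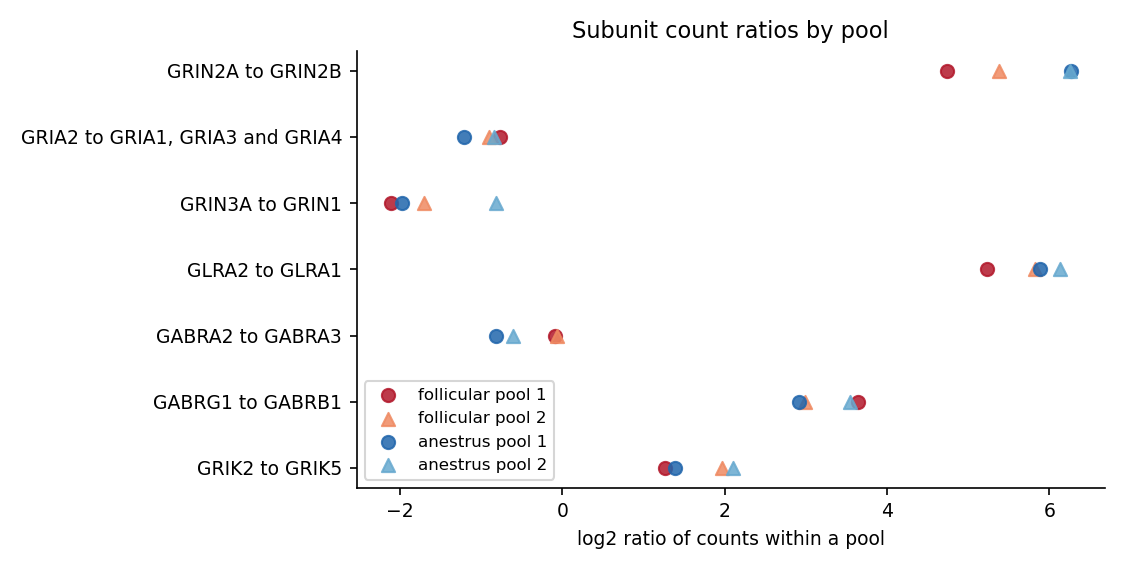
Log2 ratio of counts within each pool (horizontal axis) for the 7 subunit pairs, with 1 point per pool. For GABRA2 to GABRA3 the follicular points lie at -0.09 and -0.06 and the anestrus points at -0.82 and -0.61, whereas for GRIK2 to GRIK5 the pools numbered 1 lie together in both groups.

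Pools of a group also differed from each other. The median absolute log2 difference between pools was 0.23 for the subunits in the follicular phase and 0.30 in anestrus, beside 0.21 and 0.29 over all genes tested. Of the 32 subunits, 24 were lower in anestrus pool 1 than in anestrus pool 2, beside 46.2% of all genes. GABRG1, GABRQ and GABRP had the widest gaps in that direction, with log2 differences (pool 1 over pool 2) of -1.36, -1.14 and -1.27. The opposite order, with pool 1 above pool 2 in both groups, was seen for 7 subunits, among them GRIN1 (0.51 and 0.67), GRIN2C (0.72 and 1.19), GRIK5 (0.45 and 0.63) and GABRD (0.90 and 0.25). In 17 subunits pool 1 was below pool 2 in both groups. Across the 32 subunits, which share these 4 libraries, the pool differences of the 2 groups had a correlation of 0.42, and across all 16756 genes of 0.30.

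**Figure D4:**
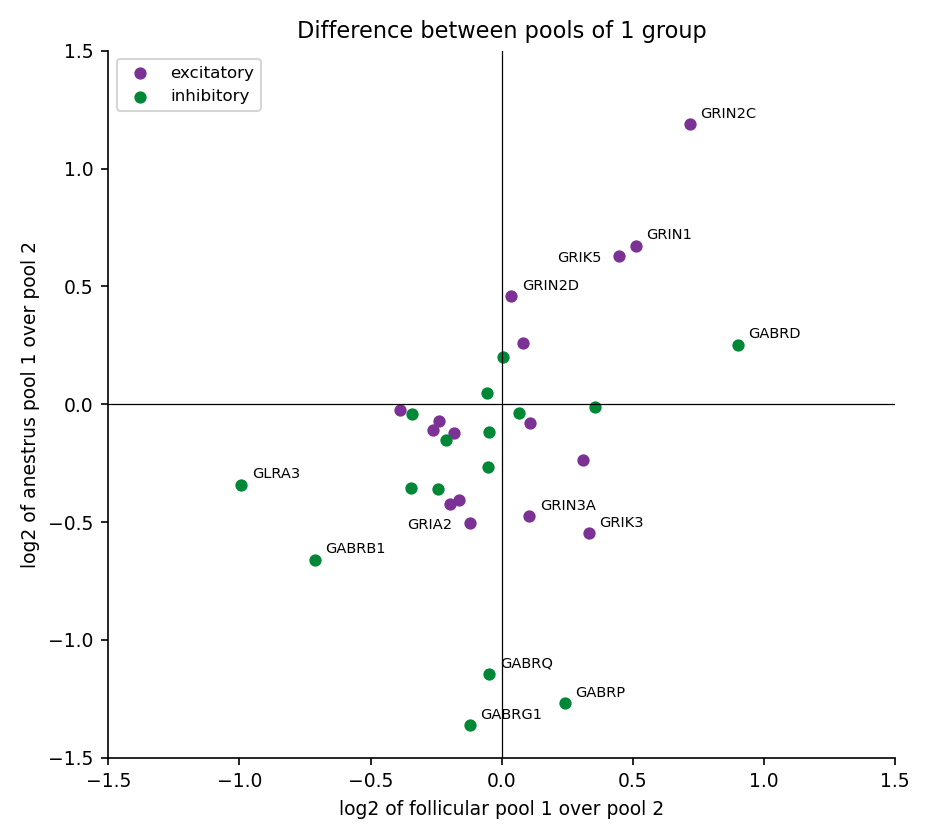
Log2 difference between pool 1 and pool 2 in the follicular phase (horizontal axis) and in anestrus (vertical axis), with 1 point per tested subunit coloured by class. GRIN1, GRIN2C and GRIK5 lie at the upper right, and GABRG1, GABRQ and GABRP at the bottom, with anestrus log2 differences from -1.36 to -1.14.

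Markers of neurons and glia also read higher in the follicular phase. All 12 tested neuron markers had a positive log2 fold change, with a median of 0.35 and 0 called, and 19 of the 32 subunits lay above that median (8 of 16 excitatory and 11 of 16 inhibitory). The summed level of the neuron markers was 5506 and 6038 CPM in the follicular pools and 5209 and 4520 CPM in the anestrus pools. Centred on the 4 pools, their median log2 CPM was 0.09 and 0.24 in the follicular pools against 0.04 and -0.30 in the anestrus pools. For the subunits it was 0.22 and 0.20 against -0.27 and -0.11. In anestrus, pool 1 was thus the lower pool for the subunits and the higher one for the neuron markers.

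Glial markers had medians of 0.56 for astrocytes (9 of 9 positive, GFAP called higher), 0.77 for oligodendrocytes (12 of 12 positive, 0 called) and 0.60 for their precursors (7 of 8 positive, 0 called). The summed level of the oligodendrocyte markers was 3679 and 4980 CPM against 3115 and 2021 CPM, that of the astrocyte markers 8935 and 9584 CPM against 5371 and 5552 CPM, and that of the precursor markers 390.1 and 441 CPM against 325 and 341 CPM. Microglia markers (10 of 10 positive, 0 called) had a median of 0.24, at 525 and 534 CPM against 435 and 427 CPM, and endothelial markers (5 of 8 positive, 0 called) one of 0.03. Pituitary and pars tuberalis markers went the other way, with a median of -0.93, 2 of 11 positive (CHGA and LHB) and TSHB and CGA called lower. Their summed level was 7262 and 5469 CPM against 15803 and 12044 CPM. Most of that sum was CGA alone, at 5232 and 4295 CPM against 13142 and 10309 CPM. Tanycyte and ependyma markers had a median of -0.11 (4 of 9 positive, 0 called) and hypothalamus markers one of 0.52 (12 of 17 positive, 0 called). No marker in these lists was at 0 in all 4 pools. The part of these cell types in the subunit values was not tested.

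**Figure D5:**
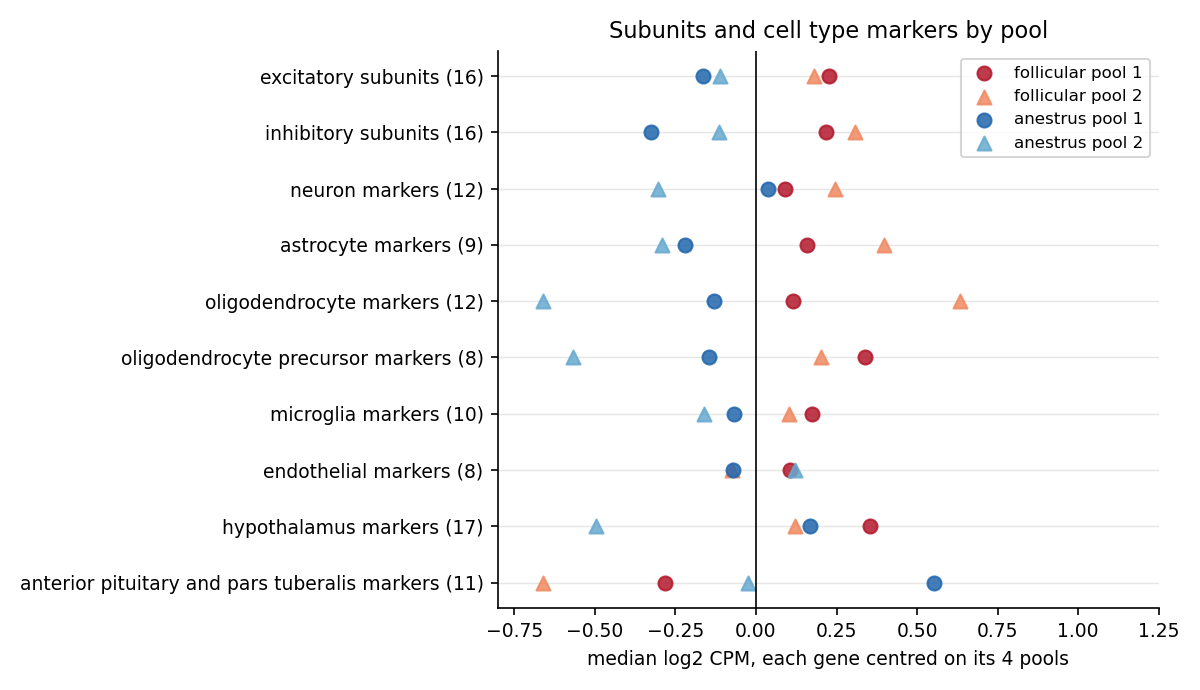
Median log2 CPM of each list (horizontal axis), with each gene centred on its 4 pools, 1 point per pool and the number of genes tested in brackets. Both follicular points of the subunits lie above 0 and both anestrus points below, whereas the neuron markers lie at 0.04 in anestrus pool 1 and -0.30 in anestrus pool 2.

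Genes that work with these receptors were taken from 7 lists. Over these lists, 69 genes were tested, of which 0 were called, beside 0.203% of all genes. At an unadjusted p under 0.05, 23 were higher in the follicular phase, beside 4.26% of all genes, and 0 were lower, beside 4.29%. The log2 fold change was positive for 61 of the 69 (median 0.37), beside 49.9% of all genes. DESeq2 called 3 of the 69 genes and limma-voom 0, beside 147 and 30 of all genes.

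On the glutamate side, 13 of 15 auxiliary subunits were positive, with a median of 0.35. GSG1L, an AMPA receptor auxiliary subunit, was at 6.73 and 6.51 CPM in the follicular pools against 2.66 and 2.33 CPM in the anestrus pools (log2 fold change 1.41 ± 0.36). SHISA6, another, was at 5.51 and 5.93 CPM against 2.31 and 1.89 CPM (1.45 ± 0.38). Both were higher in each follicular pool, and neither was called (adjusted p = 0.244 and 0.26, edgeR). Of 16 postsynaptic scaffold and kinase genes 14 were positive, with a median of 0.35, and the smallest p were those of CAMK2A (0.71 ± 0.16) and DLGAP1 (0.88 ± 0.22). All 10 genes of glutamate synthesis and transport were positive, with a median of 0.48. SLC17A7, a vesicular glutamate transporter, had a log2 fold change of 1.81 ± 0.43 from 5.51 and 3.95 CPM against 1.54 and 1.17 CPM, and SLC1A3, an astrocyte glutamate transporter, one of 0.54 ± 0.17, which was 0.36 without follicular pool 2.

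On the inhibitory side, 9 of 9 tested genes of GABA and glycine synthesis and transport were positive, with a median of 0.49. At an unadjusted p under 0.05, 6 of them were higher in the follicular phase, beside 4.26% of all genes. SLC6A11, an astrocyte GABA transporter, came nearest to a call among the pathway genes, at 161 and 142 CPM against 83.6 and 76.6 CPM (log2 fold change 0.92 ± 0.17, adjusted p = 0.066, edgeR). SLC6A9, a glial glycine transporter, was at 43.6 and 37.1 CPM against 24.6 and 20.3 CPM (0.85 ± 0.22), and SLC6A5, the glycine transporter of glycinergic neurons, had 0 counts in all 4 pools. Of 5 chloride transporters 4 were positive, with a median of 0.28. SLC12A2, which brings chloride into cells, was at 81.3 and 86.2 CPM against 41.0 and 57.1 CPM (0.77 ± 0.20), and SLC12A5, which extrudes it from neurons, was at 166 and 164 CPM against 129 and 113 CPM (0.45 ± 0.16). Neither was called. Inhibitory scaffold and assembly genes had a median of 0.29 (7 of 9 positive), with the smallest p for SLITRK3 (0.54 ± 0.29) and IQSEC3 (0.55 ± 0.29). SLITRK3 ran from 0.32 to 0.84 with a pool left out. IQSEC3 had 0.25 when anestrus pool 2 was dropped and 1.00 when anestrus pool 1 was. Metabotropic GABA receptor genes had a median of 0.27 (4 of 5 positive), with 0.40 ± 0.15 for GABBR1 and 0.38 ± 0.19 for GABBR2, which was 0.17 without follicular pool 2.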

How the data were processed

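RNA sequencing libraries of pooled medio-basal hypothalamus RNA were compared, with 2 pools in the follicular group and 2 in the anestrus group. The authors deposited raw read counts per gene, whole numbers with no normalization. RNA was extracted with TriReagent and made into stranded mRNA libraries, per the labels' protocols. The submitters' processing notes name featureCounts 2.0.0, SAMtools 1.9, Bowtie2 2.3.5.1, TopHat2 2.1.1, FastQC and bcl2fastq 2.20. Genome build, annotation, strand setting and the handling of reads with several matches were not stated (not given in the sources used here). No coordinates are printed for that reason.

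From the counts, genes were kept with filterByExpr (minimum count 10, minimum total 15), TMM-scaled and then tested in edgeR 4.0.16 (estimateDisp, robust glmQLFit, glmQLFTest) in R 4.3.3, with 2 residual degrees of freedom and Benjamini-Hochberg adjustment over all 16756 genes. A gene is called at an adjusted p under 0.05. SE is the log2 fold change divided by the square root of its F value. Ratios were compared by exact permutation over pools (scipy 1.17.1), with a pseudocount of 0.5 CPM for mean log values. The steps were tested on simulated counts. Alternatives used limma 3.58.1, DESeq2 1.42.0, other scalings and filters, replicate blocks and each pool left out.

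P-values measure the spread between pools, not goats, and intervals of depth cover counting error only. Within each group the pools were further apart than sampling noise (chi-square per degree of freedom 18.9 and 29.6) and were kept apart. The members, the 16 gene lists (168 of 174 entries matched), the ratios and the tests were chosen with earlier results of these data known. Full statistics are given for the 12 subunits with the smallest p and for the subunit with the most counts in each family (17 in all), and, in the pathway lists, for the 2 genes with the smallest p. The sample titles reverse the numbers that the library names give to the anestrus pools, and pools are numbered here by library name. All 34 identifiers matched RefSeq genes of assembly ARS1.2, used for gene order only.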

Additional observations from a re-analysis of the deposited data

How the results depend on the processing

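Called subunits were 0 in the reported fit, 3 without a count filter and 1 in the DESeq2 Wald test, and 0 to 5 when a pool was left out. Genes called in the pathway lists were 0, 8 without a filter, 3 in DESeq2 and 0 to 14 with a pool left out. Over all genes, calls were 34 in the reported fit, 300 without a filter, 147 in DESeq2, 221 with neuron marker scaling and 4 to 818 with a pool left out, which removes the spread within its group. With the replicate block, 2 subunits (GABRA2 and GRIN1), 1 pathway gene and 90 genes in all were called by the numbers of the library names, and 2, 2 and 130 by those of the sample titles. With the first block 14 subunits had an unadjusted p under 0.05, in place of 9, all higher in the follicular phase. The share of all genes higher at that p rose too, from 4.26% to 7.67%. With the library names, the pool differences of the groups correlated at 0.30 over all genes and 0.42 over the subunits. The labels name no batch or day that a number marks, and with 2 pairs the data cannot settle whether the numbers pair the pools. Subunits at an unadjusted p under 0.05 were 4 with neuron marker scaling, and 4 to 14 with a pool left out.

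Median log2 fold changes of excitatory and inhibitory subunits were 0.14 and 0.28 with neuron marker scaling, against 0.38 and 0.54 reported, and ran from 0.32 to 0.52 and from 0.37 to 0.71 with a pool left out. Neuron marker scaling turned GRIK2 (-0.025), GABRA3 (-0.041), GRIA4 (-0.079), GRIK3 (-0.031), GRIA3 (-0.077) and GABRE (-0.24) negative. That scaling moves all genes by nearly the same amount, and the median over all genes went from -0.00 to -0.25. With a pool left out, log2 fold changes that changed sign ran from -0.25 to 0.77 for GABRD, -1.25 to 0.44 for GLRA3, -0.24 to 0.17 for GRIK1, -0.033 to 1.20 for GABRQ, -0.019 to 0.58 for GRIK3, -0.00056 to 0.46 for GRIA3, -1.22 to 0.68 for GABRP, -0.32 to 0.15 for GRIN2A and -0.0099 to 0.071 for GABRE. The excitatory to inhibitory difference of -0.03 ran from -0.21 to 0.15 over its alternatives. The difference of the GABRA2 to GABRA3 ratio ran from 0.53 to 0.74. The cause of the shifts seen with a pool left out was not tested. Low counts, 7 to 121 per pool, limit GRIN2B, GRIN2C, GLRA1, GLRA3, GABRG3, GABRP, GABRD and GABRB1.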

Other observations

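In the gene order of the RefSeq table of assembly ARS1.2, 31 of the 34 subunits are placed on a chromosome, and several are direct neighbours with 0 genes between them. On chromosome 6, GABRG1 lies next to GABRA2, and GABRA4 lies next to GABRB1, with 4 genes between GABRA2 and GABRA4. The log2 fold changes (follicular minus anestrus) of these 4 were 0.63, 0.85, 0.68 and 0.69. Within anestrus they differed, since the log2 difference of pool 1 over pool 2 was -1.36 for GABRG1, -0.36 for GABRA2, -0.04 for GABRA4 and -0.66 for GABRB1. On chromosome 7, GABRB2 (0.77) lies next to GABRA6, which had 1 and 2 counts in the pools where it was seen. On chromosome 17, the inhibitory subunit gene GLRB (0.34) lies next to the excitatory subunit gene GRIA2 (0.52). No test of neighbouring genes was made, and none of these genes passed the test singly.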
